A study of Caenorhabditis elegans with 2 samples.

Results

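The regions described are all those on the X chromosome in a list of 30000 genome regions enriched for EFL-1 of Caenorhabditis elegans. They were chosen by the chromosome name alone, and 4696 of the 30000 regions (15.7%) lay on X. Of these, 99 were also in the study's stricter set of 1886 regions that passed an irreproducible discovery rate (IDR) threshold, called IDR peaks here. The other 4597 are called lower regions. These IDR peaks are the top 1886 of the pooled list by signal, so membership in the set and rank by signal are the same information. The assay was ChIP-seq, the sequencing of DNA that is immunoprecipitated with a chromatin protein, on whole L1 larvae of pooled male and female sex. The strain, YL418, carries the unc-119(ed3) allele on chromosome III and the integrated transgene vrIs65. In it, pGES-1 drives EFL-1 joined to GFP and FLAG and followed by the 3'UTR of efl-1, and unc-119(+) is the rescue gene. There was 1 group of 2 biological replicates, labelled 2 and 3, with fragments in a size range of 150 to 350 bp. No wild-type or untagged group was analysed here.

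The tagged protein was made from a transgene under the ges-1 promoter, which is known for activity in the intestine, so the lists need not show where EFL-1 made from its own locus binds. The antibody label reads efl-1, and no source used here says whether it recognises the tag or the protein. The share of males and the copy number of X DNA in the libraries were not measured. Read depth is unknown, since no file gives reads, and intervals below cover the counting of regions or genes only. With 1 group of 2 replicates the design allows no test over samples, and regions of 1 chromosome are not replicates, so no p-value is given. X is set beside the 5 autosomes, and each replicate beside the pooled list.

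E2F proteins bind DNA with a DP partner at promoters of genes for DNA replication and cell division. In C. elegans, EFL-1 and its partner DPL-1 belong to the DREAM complex, which represses cell cycle genes and reaches many promoters through LIN-54, a subunit that binds the letters TTTGAA of the cell cycle genes homology region (CHR). The X chromosome of this species is poor in genes for basic cell functions and in genes with high germline activity. In hermaphrodites a dosage compensation complex, part of which resembles condensin, loads on both X chromosomes at recruitment sites that carry a GC-rich motif, and lowers X-linked expression.

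The sequences below were chosen because they carry the motif matches at the X peaks that the results turn on. The first 6 hold TTTGAA or an E2F consensus. Of these, atg-2 and klp-13 mark the strongest X peaks, and F16B12.6 and unc-84 rank 10 and 15 on X by signal. The last of them are a pair of sex determination genes. Other X peaks with such a match were not printed. The other 10 sequences hold the 8-base core GCGCAGGG of the X recruitment motif. Each is 30 bases, 5′ to 3′ on the strand named, from the RefSeq genome WBcel235 (ce11), with the match in capitals.
upstream of atg-2, TTTGAA (chrX:6805046-6805075, plus strand): gaaaatgggaaaTTTGAAgagacgcagaga
klp-13, TTTGAA (chrX:5984819-5984848, minus strand): ttttcggccgcaTTTGAAttgccgcggttt
F16B12.6, E2F letters (chrX:14102162-14102191, minus strand): ttcacttgctgTTTCGCGCgcattcacacc
unc-84, E2F letters (chrX:13585001-13585030, plus strand): tctcattcaaaTTTCGCGCcacatacggcc
ceh-39, E2F letters (chrX:1856374-1856403, minus strand): cattcccccctTTTCCCGCccgaaatttac
sdc-1, E2F letters (chrX:16275525-16275554, minus strand): tccagaaaaatTTTCCCGCgtttttgcgcg
pks-1, core (chrX:5429579-5429608, plus strand): cattaaatttaGCGCAGGGaggacgccgtt
near W02H3.3, core (chrX:11094215-11094244, minus strand): gggaaccattcGCGCAGGGacacctcactg
nspc-17, core (chrX:14525889-14525918, minus strand): tattgcctatcGCGCAGGGacagatgtggt
near gtr-1, core (chrX:806663-806692, plus strand): gtgcgattatcGCGCAGGGgtgtttgttgc
mom-1, core (chrX:6296565-6296594, plus strand): agataggtatcGCGCAGGGaagatttaccg
F19H6.6, core (chrX:12363028-12363057, minus strand): atgagttatagGCGCAGGGtcttgaggata
near xol-1, core (chrX:8036424-8036453, plus strand): atttttccatcGCGCAGGGaacccttcgat
Y41G9A.17, core (chrX:2997112-2997141, minus strand): ttaaatttatcGCGCAGGGaggaagtagcc
near F20B6.9, core (chrX:4209255-4209284, minus strand): ttgccgctatcGCGCAGGGacacctctttc
near F22H10.2, core (chrX:16682161-16682190, minus strand): aagaaaacatcGCGCAGGGaacatcaaatt

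X regions thinned out towards the top of the list. X makes up 17.7% of the nuclear genome and held 265 regions per Mb, against 307 on the autosomes, which ranged from 282 on V to 344 on III. Of the X regions, 99 (2.11%, 95% Clopper-Pearson interval 1.72 to 2.56%) were IDR peaks, while 6.29% of all 30000 regions were. The autosomal share was 7.06%, and it ranged from 5.07% on V to 9.03% on III. X thus held 5.59 IDR peaks per Mb, and the autosomes held 21.6.

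By signal rank, X held 14 of the 943 strongest regions (1.48%, 0.814 to 2.48%) and 85 of the next 943 (9.01%). It held 416 of the 3114 regions ranked 1887 to 5000 (13.4%) and 811 of the 5000 ranked 5001 to 10000 (16.2%). From rank 20001 on it held 1679 of 10000 (16.8%). In each replicate's own list, too, the X share was lowest among the 943 strongest regions and next lowest among the following 943. X held 1.80% of the 943 strongest regions of replicate 2 and 1696 of its last 10000. For replicate 3 these figures were 1.38% and 1771 of 10000, and its share was highest at ranks 5001 to 10000 (18.1%).

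**Figure D1:**
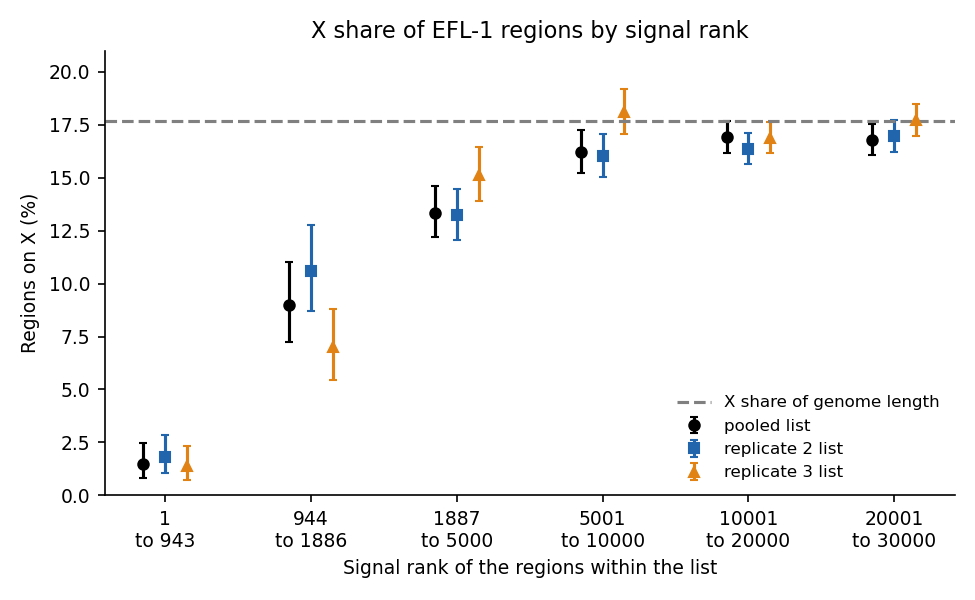
Share of regions on X (%) by signal rank within the pooled list and each replicate's own list, with 95% Clopper-Pearson intervals; the dashed line is the X share of genome length. In all 3 lists the share was lowest among the 943 strongest regions (1.48% in the pooled list) and in the last 10000 it was 1679, 1696 and 1771 regions for the pooled list, replicate 2 and replicate 3.

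The signal value in the deposited lists differed little between X and the autosomes for the typical region and much for the strongest. The median pooled signal was 7.59 on X and 7.90 on the autosomes, and among lower regions it was 7.53 and 7.65. The 95th percentile was 15.1 on X and 40.4 on the autosomes. The 99th percentile was 40.3 on X against 363. A signal of at least 50 was reached by 35 X regions (0.745%) and 1091 autosomal regions (4.31%), and one of at least 100 by 3 and 682. Among IDR peaks alone the median was 39.5 on X, and 61.9 to 69.8 on single autosomes. The ratio of the X to the autosomal median over IDR peaks was 0.602 in the pooled list. Over the 1886 strongest regions of each replicate's own list it was 0.601 in replicate 2 and 0.617 in replicate 3. The highest X signal was 388, at rank 228 of the list, and the lowest maximum of an autosome was 1636 on I.

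**Figure D2:**
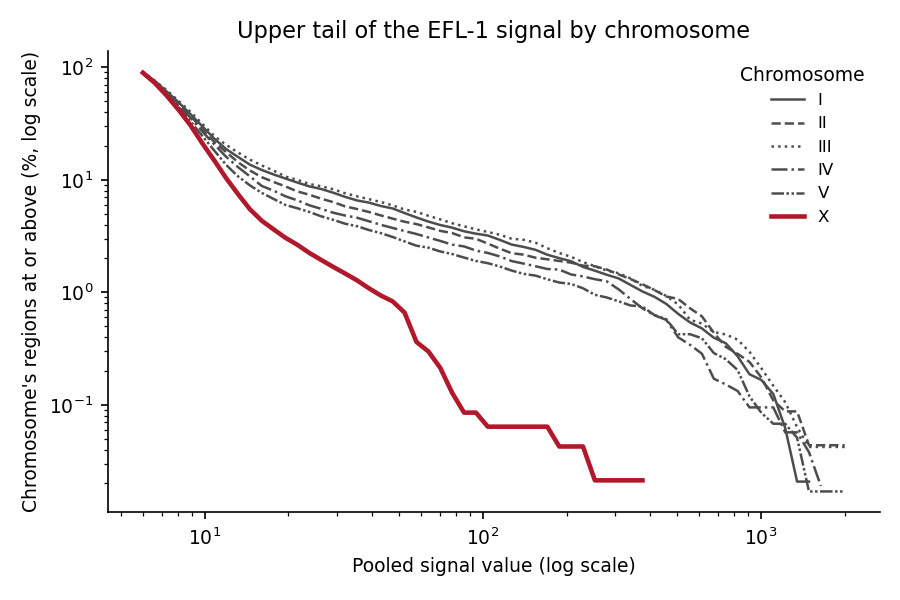
Share of each chromosome's pooled regions (%, log scale) at or above each signal value (log scale), 1 line per chromosome. The X line is the lowest at the signal values shown, and the gap to the 5 autosomes is wider at high signal, with 19.5% of X regions at or above 10 (23.3 to 29.7% on single autosomes) and 0.745% at or above 50 (2.99 to 5.61%).

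The strongest X region lay between genes, 1676 bp upstream of atg-2, an autophagy gene (chrX:6804962-6805206). Its pooled signal was 388, with 294 in replicate 2 and 91.8 in replicate 3. Since the scales of the replicates differ, each signal was also divided by that replicate's median over IDR peaks, 45.8 in replicate 2 and 19.2 in replicate 3. On that relative scale the region reached 5.60 ± 1.17 (SD, n = 2), so it stood well above the typical IDR peak in both replicates. The second lay 206 bp upstream of klp-13, which encodes a kinesin-like motor (chrX:5984703-5984880). Its signal was 157 in replicate 2 and 83.8 in replicate 3, a relative signal of 3.90 ± 0.655 (SD, n = 2). The third lay 275 bp upstream of puf-9, which encodes an RNA-binding protein of the Pumilio family, with 140 and 36.6 in the replicates and a relative signal of 2.48 ± 0.818 (SD, n = 2). These 3 were the X regions with a pooled signal above 100.

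The fourth region lay 372 bp upstream of rpl-11.2, which encodes a protein of the large ribosomal subunit, with a pooled signal of 99.3, or 68.9 in replicate 2 and 30.3 in replicate 3. The fifth, with 84.4, lay 820 bp upstream of ivns-1. The sixth, with 81.7, lay inside the non-coding genes tts-1 and F09E10.14, and its nearest protein-coding gene was F09E10.1. Of the 25 strongest X regions, 17 had a gene in the promoter window, and among these were pdi-6 (protein disulfide isomerase), lsy-2 (a zinc finger factor), hst-2 (a heparan sulfate sulfotransferase), zfp-3, ucr-2.2 (a mitochondrial respiratory chain subunit) and unc-84. Their pooled signals were 65.0, 64.9, 60.9, 57.7, 55.0 and 61.2. The other promoter genes were C14A11.9, pkhm-2, F16B12.6, T26C11.4, F17E5.2, C04A11.2 and serp-1.1, from 75.6 at C14A11.9 to 55.1 at serp-1.1. The remaining regions lay in a coding exon of pks-1, a polyketide synthase gene, or nearest to K02D3.1, F55G7.5, W02H3.3, bet-2 and fbxb-58, with signals from 74.3 to 54.2.

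In the list of replicate 2 all 25 ranked within the first 1886, and in that of replicate 3 this held for 18 of 25. The region at unc-84, which encodes a SUN-domain protein of the nuclear envelope, had a signal of 54.9 at rank 816 in replicate 2 and 3.03 at rank 24960 in replicate 3. The region 174 bp upstream of pkhm-2 had 73.7 in replicate 2 and no counterpart in replicate 3. At the lower edge, the IDR peak of lowest signal on X lay 281 bp upstream of nipi-3, with 24.5. The strongest lower region lay 82 bp upstream of unc-115, with 24.2.

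X IDR peaks lay mostly at promoters, yet less often than autosomal ones. A summit, the deposited point of highest signal in a region, counted as at a promoter within a window that ran from 1000 bp before to 500 bp after the start of any transcript of a protein-coding gene. This held for 67 of 99 X IDR peaks (67.7%, 57.5 to 76.7%) and for 1474 of 1787 autosomal ones (82.5%), with 79.8 to 84.8% on single autosomes. Such windows cover 26.8% of X and 33.04% of the autosomes, so the share was 2.52 times the covered share on X and 2.50 times on the autosomes. The difference was larger among the 943 strongest regions, 10 of 14 on X (71.4%, 41.9 to 91.6%) against 92.5% on the autosomes. Among the next 943 it was 67.1% against 71.7%, within the X interval of 56.0 to 76.9%. Of all X regions, 30.5% had a summit at a promoter, and in the last 10000 ranks 27.5% did.

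**Figure D3:**
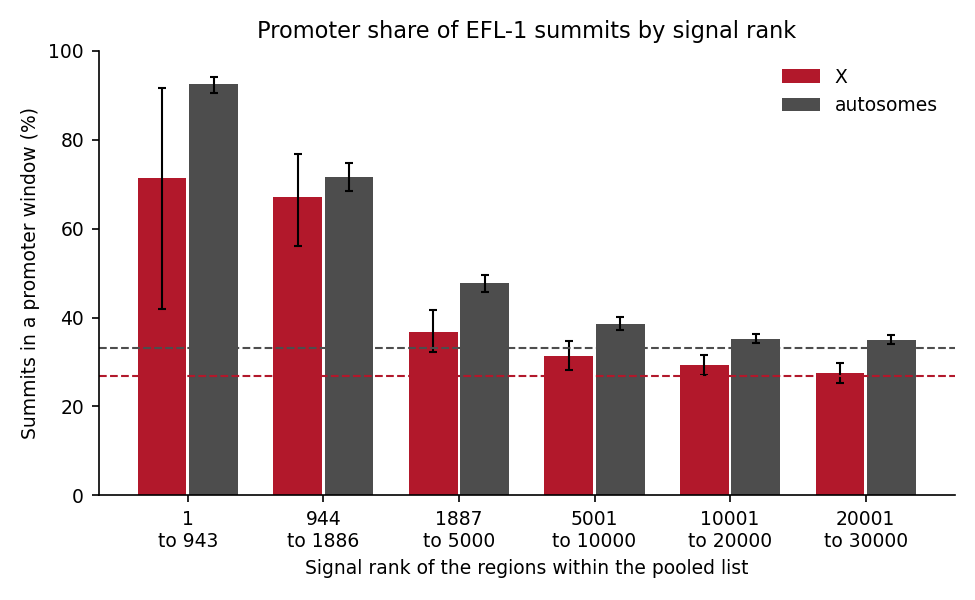
Share of summits in a promoter window (%) by signal rank in the pooled list, for X and the autosomes, with 95% Clopper-Pearson intervals; dashed lines mark the share of the sequence that the windows cover. The X bars fall from 71.4% of the 14 strongest regions to 27.5% in the last ranks, where the windows cover 26.8% of X.

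Of the X IDR peaks, 20 lay between genes (20.2%, 12.8 to 29.5%), against 8.28% of the autosomal ones. Such sequence, outside promoter windows, makes up 29.2% of X and 19.8% of the autosomes. At pooled ranks 944 to 1886 the shares were 21.2% (13.1 to 31.4%) and 13.3%, and among the 943 strongest regions 2 of 14 and 3.66%. Another 5 of the 99 lay in introns, 5 in non-coding genes or pseudogenes, 1 in a coding exon and 1 in an untranslated exon. Nearly all promoter summits on X lay upstream of the nearest start, at a median of -206 bp. Over all IDR peaks the median distance from summit to nearest start was 281 bp on X and 216 bp on the autosomes. At pooled ranks 944 to 1886 it was 318 and 309 bp, and among the 943 strongest regions 240.5 and 169 bp. On X, IDR peaks at promoters and elsewhere had like medians, 39.5 and 41.1. On the autosomes the promoter peaks had the higher median, 78.3 against 38.4. These medians were not matched by rank, and 85 of the 99 X IDR peaks lay at ranks 944 to 1886, against 858 of 1787 autosomal ones. Along X the IDR peaks were spread out, with 22, 21, 15, 20 and 21 in 5 successive stretches of equal length, 2 to 11 per 1 Mb bin, and a median distance of 169 kb between neighbours.

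Few X-linked genes had an IDR peak in the promoter window, 74 of 2731 (2.71%), where 11% of all 19973 protein-coding genes had one. Without replicate 2, the strongest regions of replicate 3 alone gave 1.76% of X-linked and 11.8% of autosomal genes. A lower region or IDR peak of any rank was there for 43.2% of X-linked genes (41.4 to 45.1%) and 52.2% of autosomal genes, with 51% over all.

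The cell cycle lists had almost no member on X. None of 41 DNA replication genes and none of 56 mitosis genes is X-linked, while 33 and 45 of them had an IDR peak in the promoter window. Another 3 and 1 names of these lists matched no gene of the annotation and were not counted. Of the 34 cyclins, CDKs and inhibitors of G1, only cdk-4 lies on X, and it had no region in its promoter window. The 5 X-linked members of the DREAM and synMuv list had no IDR peak, where 2.71% of all X-linked genes had one, so this count stands near the share of the chromosome. Of the autosomal members 21 of 39 had one, where 12.3% of all autosomal genes did. A lower region lay at gap-1 and at lin-15B, with pooled signals of 8.82 and 8.43, each with a counterpart in 1 replicate, and hpl-1, lin-15A and sli-1 had none. Of 2 X-linked ribosomal protein genes, rpl-11.2 had its peak and rpl-25.1 had no region, and 64 of 76 autosomal ones had an IDR peak.

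Among 7 X-linked genes of dosage compensation and sex determination, 2 had an IDR peak, beside 2.71% of all X-linked genes. Of the autosomal members 5 of 20 had one, beside 12.3% of all autosomal genes. At ceh-39, a homeobox X signal element that helps count X chromosomes, the summit lay 140 bp upstream, with a pooled signal of 32.9, and 20.6 and 12.2 in replicates 2 and 3. At sdc-1, a zinc finger gene needed for both processes, it lay 273 bp upstream, with 24.8 pooled, and 18.7 and 5.87 in the replicates. Relative signals were 0.541 ± 0.130 and 0.357 ± 0.0726 (SD, n = 2), so both lay below the typical IDR peak in each replicate. The peak at ceh-39 ranked 1660 in replicate 2 and 1379 in replicate 3. The peak at sdc-1 ranked 1775 in replicate 2 and only 6094 in replicate 3. Lower regions lay at tra-4 (17.05), fox-1 (9.11) and xol-1 (6.55), and sdc-2 and sex-1 had none. Those at tra-4 and fox-1 had a counterpart in both replicates, and the one at xol-1 had a counterpart in neither.

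The lists of tissue genes held more X-linked members, and none of those had an IDR peak in the promoter window. That is near the 2.71% of all X-linked genes and no result about these lists. This covers 16 intestine, 29 neuron, 14 muscle, 16 epidermis and cuticle, and 11 heterochronic and vulval genes. The autosomal members of these lists had 2 of 26, 3 of 35, 1 of 32, 1 of 30 and 6 of 27. These shares were 7.69, 8.57, 3.13, 3.33 and 22.2%, beside 12.3% of all autosomal genes. Outside promoter windows, an IDR peak lay in an intron of mom-1, of the heterochronic and vulval list, with a pooled signal of 44.5. The strongest lower region of each list was, for neurons, heterochronic and vulval genes, epidermis and muscle in turn, at unc-115 (24.2), an actin-binding protein of growing axons, lin-14 (19.05), the heterochronic timing gene, sma-5 (15.3), a kinase of body size control, and tnt-2 (10.4), a troponin T. In the intestine list the strongest was at ifp-1 (7.19), and at elt-2, the GATA factor of intestinal cells, the signal was 6.85, so both lay below the X median of 7.59.

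Genes of the secretory pathway and its stress response stood at several of the other X IDR peaks. They are examples and not a full list. They were picked after their values were seen, were not counted against other genes, and are given as a description. The summit lay 65 bp upstream of hsp-3, an ER chaperone of the BiP type, with a pooled signal of 52.2, 395 bp upstream of pek-1, the kinase of the unfolded protein response, with 36.6, and 202 bp upstream of uggt-1, a glycoprotein folding sensor, with 30.1. At atf-4, a stress-response transcription factor, the pooled signal was 53.3. That summit lay 173 bp upstream of atf-4 and 179 bp upstream of another gene. The peak at uggt-1 had 23.8 in replicate 2. In replicate 3 it had 2.66 at rank 29663, near the lowest signal of that list, 2.63. The peaks at hsp-3, pek-1 and atf-4 ranked 1286, 1588 and 870 in replicate 3.

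Both motifs linked to E2F and DREAM complexes were present at X peaks, and 1 of them was no more frequent there than beside them. Matches on both strands were counted up to 100 bp either side of a summit, and in an equally long flank centred 500 bp to the left. The E2F consensus, which here means TTTCCCGC, TTTCGCGC, TTTGCCGC or TTTGGCGC, stood at 11 of 99 X IDR summits (11.1%), in 3.03% of the flanks, and at 12.5% of autosomal IDR summits. It stood in 2.41% of all windows of that length tiled along X, and in 2.45% of X promoters. TTTGAA stood at 37 of 99 summits (37.4%, 27.9 to 47.7%), in 48.5% of the flanks and at 50.5% of autosomal IDR summits. It stood in 49.4% of tiled X windows and 1228 of 2731 X promoters. At pooled ranks 944 to 1886 it stood at 36.5% of X and 38.9% of autosomal summits, and in 49.4% and 46.6% of their flanks. Among the 943 strongest regions it stood at 6 of 14 X summits and 61.2% of autosomal ones. Over the 99 X summits its deficit against the flank was 11.1 percentage points. This did not keep its sign with 250 bp windows (1.01 points above the flank) or in the strongest regions of replicate 3 alone (5.06 points above). GC content within 100 bp moved with this, at 45.6% at X IDR summits, 35.6% in their flanks and 40.5% at autosomal IDR summits, and its part in the shares was not tested. TGATAA, the letters of intestinal GATA sites, stood at 8.08% of X and 10.6% of autosomal IDR summits, and in 11.1% and 17.7% of their flanks. It stood in 19.1% of tiled X windows and 22.1% of X promoters.

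Among X peaks with TTTGAA were the 2 strongest, near atg-2 and at klp-13. The median signal of X IDR peaks was 36.6 with TTTGAA and 39.5 without it, while on the autosomes it was 107 and 51.7. With the E2F consensus it was 45.7 on X against 38.4 without. Ranks were not matched here, and 85 of the 99 X IDR peaks lay at ranks 944 to 1886, against 858 of 1787 autosomal ones. Of the 99 peaks, 43 had TTTGAA or the E2F consensus, 5 had both, among them ceh-39 and unc-84, and 50 had neither and no recruitment core.

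The core GCGCAGGG of the X recruitment motif stood at 10 of 99 X IDR summits (10.1%, 4.95 to 17.8%). It stood in 1.01% of the left flanks, a difference of 9.09 percentage points, which was 7.69 points for the 1886 strongest regions of replicate 2 alone and 3.80 points for those of replicate 3 alone. It stood at 1 of 1787 autosomal IDR summits (0.056%, 0.0014 to 0.311%). It was in 75 of 88153 tiled X windows (0.0851%) and 227 of 410713 autosomal ones (0.0553%), in 2 of 2731 X promoters and at 5 of the 4597 lower regions of X. Counted from the motif, X held 81 copies, of which 13 (16.0%, 8.83 to 25.9%) lay within 100 bp of an IDR summit, and the autosomes held 233 copies, of which 1 did (0.429%). The reversed letters GGGACGCG, added after the data were seen as a control of like composition, had 82 copies on X, of which 1 lay at an IDR summit. They stood at 1 of 99 X and 5 of 1787 autosomal IDR summits. The 7-base form CGCAGGG, also added then, stood at 12 of 99 X and 21 of 1787 autosomal IDR summits (12.1 and 1.18%). The letters GCGC end 2 forms of the E2F consensus, TTTCGCGC and TTTGGCGC, and at 1 of these peaks, in an intron of mom-1, matches of both motifs overlapped. No other pair of motifs overlapped at an X IDR peak.

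**Figure D4:**
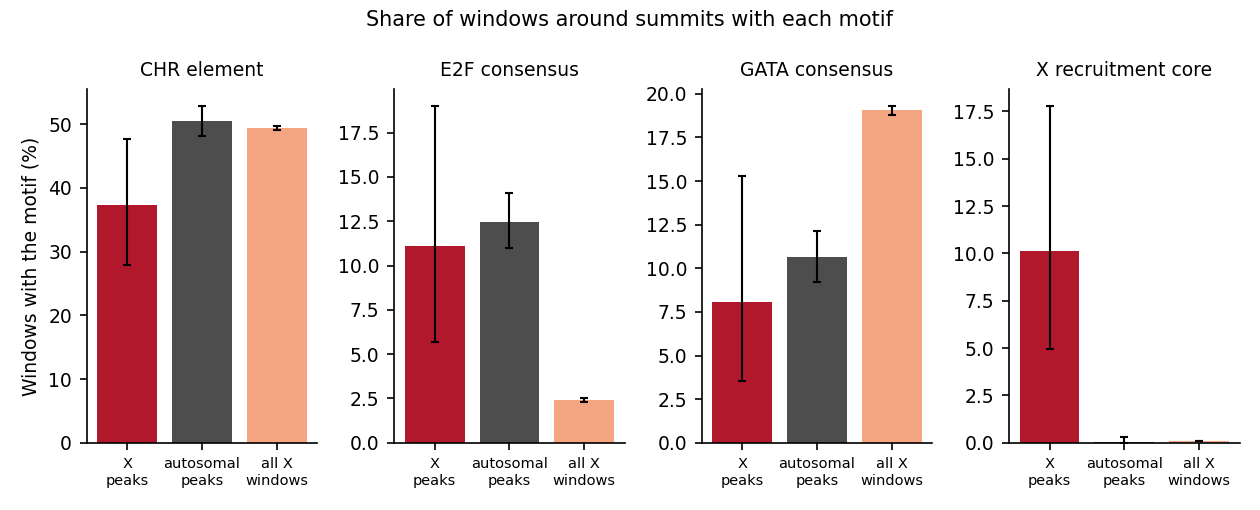
Share of windows (%) holding each motif within 100 bp of X IDR summits (99), autosomal IDR summits (1787) and in all X windows of that length (88153), with 95% Clopper-Pearson intervals; each panel has its own axis from 0. The E2F consensus was at like shares on X and the autosomes (11.1 and 12.5%), and the recruitment core was at 10.1% of X peaks against 0.056% of autosomal peaks.

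In the printed sequences, TC preceded the core at 8 of 10 peaks and an A followed it at 8 of 10, and 3 of the 10 peaks held 2 copies. Of these 10 peaks, 9 lay outside promoter windows, which is 28.1% of the 32 X IDR peaks there, and 1 of 67 promoter peaks held the core, that of nspc-17. Their median signal was 44.2, with a range of 28.8 to 66.4, and that of the other 89 X IDR peaks was 39.1. The strongest, in a coding exon of pks-1, had 59.3 in replicate 2 and 9.30 in replicate 3. The one 649 bp upstream of nspc-17 had 27.4 and 18.4. The one 4875 bp upstream of xol-1, the gene that sets sex by X number, had 41.2 and 2.67, so it was near the floor of the replicate 3 list. Those near F20B6.9 and F22H10.2 had 37.3 and 31.1 in replicate 2 and no counterpart in replicate 3. In all, 8 of 10 had a counterpart in replicate 3 and 4 were among its 1886 strongest regions, against 79 and 40 of the other 89.

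Support from replicate 3 was lower for X peaks than for autosomal ones. Every X IDR peak met a region of replicate 2, and 92 of 99 (92.9%) met one of its 1886 strongest, against 92.1% on the autosomes. In replicate 3, 87 of 99 (87.9%) met any region and 44 (44.4%, 34.5 to 54.8%) met one of its 1886 strongest, against 97.3% and 80.1%. Both replicates' strongest regions were met by 40 X IDR peaks (40.4%, 30.7 to 50.7%) and by 73.7% of autosomal ones. X peaks are weaker, so like ranks were compared. Among pooled ranks 944 to 1886 the share meeting the strongest regions of replicate 3 was 38.8% on X (33 of 85) and 60.3% on the autosomes (56.9 to 63.5%). In replicate 2 the order was the other way, with 78 of 85 on X (91.8%) and 717 of 858 on the autosomes (83.6%). The share for both replicates was 29 of 85 on X there, and 403 of 858 on the autosomes.

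Where a peak was in both lists, the relative signal on X leaned to replicate 2. The median ratio of relative signal in replicate 2 to replicate 3 was 1.42 for the 87 X IDR peaks, and 60 of them were higher in replicate 2. For 1736 autosomal IDR peaks the median was 1.03, and 0.984 to 1.05 on single autosomes. The median gap between a peak's summits in replicates 2 and 3 was 38 bp on X and 17 bp on the autosomes. It was 45 and 32 bp at pooled ranks 944 to 1886, and 10 and 11 bp among the 943 strongest regions. Among those 943 the 13 X peaks in both lists had a ratio of 0.953, so the lean was in the weaker peaks, at 1.44 for 74 peaks. Lower regions differed less in support, with 975 of 4597 on X (21.2%) and 5584 of 23517 on the autosomes (23.7%) found in both replicates.

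**Figure D5:**
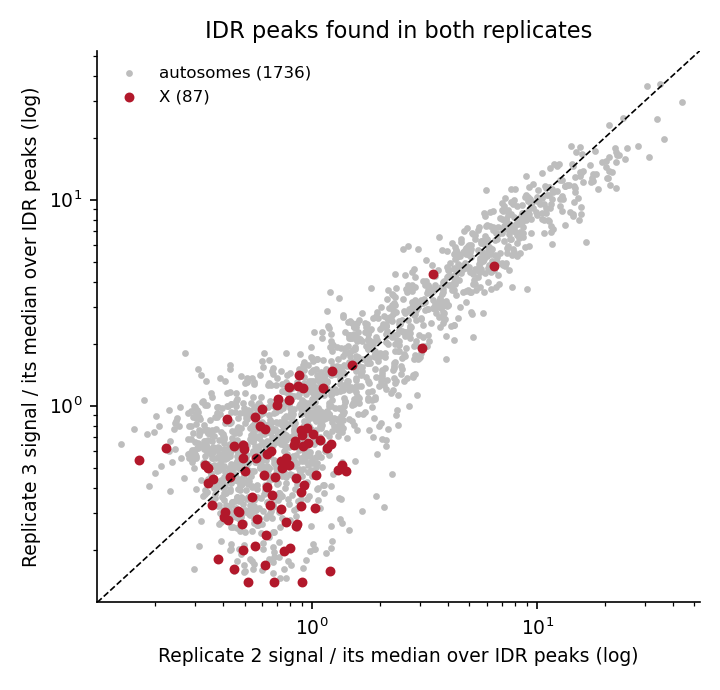
Signal of IDR peaks found in both replicates, divided by each replicate's median over IDR peaks (log scales), replicate 2 against replicate 3; red points are the 87 X peaks, grey points the 1736 autosomal ones, and the dashed line marks equal values. Of the X points, 60 lie below the line, and most lie at the low end of both axes.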

How the data were processed

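Per the file headers and the notes deposited with each replicate, the authors' files are narrowPeak lists. Each of the builds ce10 and ce11 has 30000 regions per replicate, 30000 pooled regions and an IDR set. No source used here names the aligner or the peak caller. In the deposited lists column 7 is a signal value, whose scale differs between lists, so values were compared within a list or as ratios. The deposited −log10 q-value ties at its highest value for 87 of 99 X IDR peaks and was not used for ranking. Summits are as deposited. Nothing was recalled from reads.

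X regions, positions, motifs and replicate overlaps (at least 1 bp) were computed on ce11 with the RefSeq genome WBcel235 and Ensembl release 115, in Python 3.11.15 with NumPy 2.4.6, SciPy 1.17.1, pandas 2.3.3 and matplotlib 3.10.9. Promoter motif windows were centred 100 bp upstream of each gene's outermost start. Neighbouring regions overlapped in 471 places. Shares carry Clopper-Pearson 95% intervals. The functions were tested on simulated data. Genes named are those at the 25 X regions of highest signal, the X-linked list members with an IDR peak or the strongest region below it, and the edge of the IDR set. Genes at peaks with the recruitment core, and those of the secretory pathway and its stress response, were named after their values were seen. The members, lists and motifs were chosen with earlier results of these data known.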

Additional observations from a re-analysis of the deposited data

How the results depend on the processing

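No paired analysis was possible because the study has 1 group. Of 63 recomputed comparison values, 41 stayed within the interval or spread of the main value, 19 moved beyond it with the same direction, and 3 changed sign. The cause was not tested.

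For each replicate alone in place of the pooled list, the X share of regions was 15.5 to 16.4%, the IDR-size share of X regions 1.61 to 2.51%, the promoter share of X summits 55.7 to 63.2% and the share of X-linked genes with a peak 1.76 to 3.11%. The ratio of median signals was 0.953 to 0.969, the ratio of the X share at the top to that at the bottom of the list 0.0778 to 0.106, and the promoter share of all X regions 29.6 to 30.6%. Support of X peaks was 92.9% by replicate 2 alone, slightly above the autosomal 92.1% and so of the other sign, and 44.4% by replicate 3 alone. The difference from the flank ranged from -15.4 to 5.06 percentage points for TTTGAA, 5.13 to 6.33 for the E2F consensus, -9.40 to -8.86 for TGATAA and 3.80 to 7.69 for the recruitment core.

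With the upper 15000 regions only, the X share was 14.3% and the ratio of median signals 0.949. With the 943 strongest regions in place of the IDR set, 0.298% of X regions and 0.366% of X-linked genes remained, and the promoter share was 71.4%. A window from 300 bp before to 100 bp after the start gave 49.5% of X IDR summits, 10.97% of all X regions and 1.90% of X-linked genes, and any part of a region in the window gave 34.7% of all X regions. With whole replicate lists, support was 87.9%. For TTTGAA the 250 bp window gave 1.01 points. For TGATAA the right flank gave -15.2 points, where the left flank gave -3.03 points. The reversed core, added after the data were seen, gave 1.01 points.

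The number of X IDR peaks, 99, limits every share of them, and 14 X regions among the 943 strongest limit the top tier most. Depth is unknown.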

Other observations

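Genes for tRNA are crowded on X, which holds 276 of them beside 336 on the autosomes. An IDR summit lay within 200 bp of 9 X-linked tRNA genes (3.26%, 1.50 to 6.10%) and of 43 autosomal ones (12.8%, 9.42 to 16.8%). Any region of the pooled list lay that close to 105 and 188 of them. Of the 99 X IDR summits 7 (7.07%) lay within 200 bp of a tRNA gene, and the stretches so defined cover 0.680% of X. Of the 1787 autosomal IDR summits 40 (2.24%) did, and there such stretches cover 0.185% of the sequence. Of the 7 on X, 5 were among the 32 X IDR peaks outside promoter windows. Small nucleolar RNA genes had an IDR summit that close at 1 of 33 on X and 58 of 313 on the autosomes (18.5%). Stretches within 200 bp of them cover 0.101% of X and 0.199% of the autosomes. None of the 74 X-linked microRNA genes had one that close, with an upper 95% bound of 4.86%, and 6 of 187 autosomal ones did (3.21%). Their stretches cover 0.182% of X and 0.104% of the autosomes. Beside these, 2.71% of X-linked and 12.3% of autosomal protein-coding genes had an IDR summit in the longer promoter window. The shares of X-linked genes in these RNA classes stood near 2.71%, so they are not read as a result about the classes.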
